A study of Mus musculus with 8 samples.

Results

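The UDP-glucuronosyltransferases (UGTs) are enzymes of the endoplasmic reticulum membrane that join glucuronic acid, taken from UDP-glucuronic acid, to bilirubin, steroids, bile acids, phenols and many drugs. The conjugates are water-soluble and leave the hepatocyte through transporters into bile or blood. Genes of the Ugt1a family arise from 1 locus in which each gene has its own first exon and all share the exons that follow. Most Ugt2 genes are separate copies in a cluster, while Ugt2a1 and Ugt2a2 share most of their exonic bases. The first part of a UGT binds the substrate and the last part binds the sugar donor, so the family changes its substrates by changing its first part.

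The genes described here are 10 members of these families, Ugt1a1, Ugt1a6b, Ugt1a9, Ugt2a3, Ugt2b1, Ugt2b5, Ugt2b34, Ugt2b36, Ugt2b37 and Ugt2b38. They were chosen by symbol, and are 10 of the 22 Ugt genes and of the 49671 gene rows in the table of read counts. All 10 passed the filter on low counts.

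RNA-seq was made from the livers of mice labelled C57BL/6 and taken after weaning, with 8 libraries, 2 for each sex of wild type (WT) and of NT-KO mice. NT-KO mice are homozygous for a deletion at the start of Lbr, which encodes the lamin B receptor of the inner nuclear membrane. The study expects a truncated protein that lacks the N-terminal Tudor and RS domains, and also writes of a severe reduction of the protein. The deletion was made with CRISPR/Cas9 and the colony goes back to 1 founder male, crossed to C57BL/6N females, so the NT-KO mice represent 1 allele. WT mice are so named by the labels. Nothing in the labels ties replicates to litters or days, and p-values measure the spread between these libraries.

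Total counts per library lay between 45020377 and 64396291. Levels are given in CPM (the count relative to the library total, as scaled by TMM, which corrects for library composition). Before TMM scaling, 1 count equalled 0.0155 to 0.0222 CPM. Lbr was at 6.52 to 8.04 CPM in the 4 WT libraries and at 12.8 to 14.0 CPM in the 4 NT-KO libraries. A count over the whole gene does not show the deleted part, but the 2 genotypes did not overlap. The summed level of 6 hepatocyte markers was 68946 to 105061 CPM, and 5 kidney markers, from another organ rich in UGTs, summed to at most 0.201 CPM. Summed markers of other cells differed between groups. The summed level of 5 B lymphocyte markers was 2.22 and 2.96 CPM in WT males against 7.53 and 9.22 CPM in NT-KO males, and 9.03 and 8.24 CPM in WT females against 3.77 and 5.83 CPM in NT-KO females. All 5 were higher in NT-KO than in WT males, and all 5 lower in NT-KO than in WT females. Between the sexes in NT-KO, 1 was higher in males and 4 were lower, although the male sums were higher. The 5 erythroid markers summed to 953 and 443 CPM in WT males, 373 and 371 CPM in NT-KO males and 170.4 to 318 CPM in female libraries. The 5 Kupffer cell markers summed to 121 to 217 CPM in male and 227 to 272 CPM in female libraries, and the 5 endothelial markers to 93.5 to 143 CPM and 146 to 166 CPM. The 5 cholangiocyte markers summed to 39.4 and 44.8 CPM in WT males, 24.3 and 28.5 CPM in NT-KO males and 33.5 to 58.3 CPM in female libraries. This sum does not stand for the list. Of the 4 tested, 3 were higher in NT-KO than in WT males and 1 lower, with a median log2 difference of 0.20. The part of these cells in the results that follow was not tested. In whole liver, fewer cells of a type and less RNA per cell cannot be told apart.

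The Ugt1a genes lie on the plus strand of chromosome 1 in GRCm38, with Ugt1a9 at 88070800-88218997, Ugt1a6b at 88103252-88219003 and Ugt1a1 at 88211959-88218997. The coding sequences of the 3 members end in 737 identical bases, while the parts before them are only 54.3% to 57.2% identical. The junctions below are shown because they mark the place where the members stop differing. Each holds the last 30 bases of the gene's own exon in lower case and, in capitals, the first 30 bases of the common exon at chr1:88215044-88215175 (GENCODE M21 transcripts, GRCm38).
Ugt1a1: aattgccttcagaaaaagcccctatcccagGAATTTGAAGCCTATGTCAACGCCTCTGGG
Ugt1a6b: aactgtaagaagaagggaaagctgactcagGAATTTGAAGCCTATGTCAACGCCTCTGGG
Ugt1a9: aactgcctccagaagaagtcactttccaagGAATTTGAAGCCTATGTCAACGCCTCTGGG
Only reads in a gene's own exons tell these members apart. The bases covered by no other annotated gene were 40.1% of the exonic bases of Ugt1a9, 39.4% of those of Ugt1a6b and 17.3% of those of Ugt1a1. Part of the first exon of Ugt1a1 is also covered by another annotated gene. Ugt1a10 uses the same common exons and stood at 0.353 to 1.58 CPM while Ugt1a9 reached 189 CPM, so reads in the common exons were not counted for every gene of the locus. Ugt1a6b shares 79.6% of its 50-base stretches with Ugt1a6a, a part of them in the common exons. Ugt1a1 shares 58.2% with Ugt1a2, and Ugt1a9 61.8% with Ugt1a10. The level of Ugt1a6b is uncertain where the counting could not place a read.

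The 7 Ugt2 members lie on the minus strand of chromosome 5 between 86889767 (Ugt2b34) and 87424203 (Ugt2b38), and no other annotated gene overlaps their exons. Their coding sequences differ in how alike they are. Ugt2b5 is 97.0% identical to Ugt2b38, 94.7% to Ugt2b37 and 88.4% to Ugt2b36, but 72.5% to Ugt2b1 and 65.7% to Ugt2a3. Of 50-base stretches, 41.7% of Ugt2b5, 37.4% of Ugt2b38 and 18.3% of Ugt2b37 occur in another gene, against 0.285% of Ugt2b36 and 0% of Ugt2b1. Reads from such stretches cannot be placed by sequence, so the split of counts among Ugt2b5, Ugt2b37 and Ugt2b38 is less certain than the level of Ugt2b1.

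The closest copies also share part of their promoters, which are shown because the levels of their transcripts differ in the comparisons that follow. The 250 bases before the RefSeq start (GRCm38.p6, written 5′ to 3′ on the gene's strand) of Ugt2b5, Ugt2b38 and Ugt2b37 hold a common stretch of 62 bases, in capitals, which Ugt2b36 does not hold in full.
Ugt2b5, chr5:87140341-87140590, strand -: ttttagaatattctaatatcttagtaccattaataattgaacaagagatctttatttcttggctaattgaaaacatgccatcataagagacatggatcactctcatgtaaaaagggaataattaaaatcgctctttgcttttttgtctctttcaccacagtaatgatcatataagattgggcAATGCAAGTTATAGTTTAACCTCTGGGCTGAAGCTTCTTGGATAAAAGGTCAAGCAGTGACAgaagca
Ugt2b38, chr5:87424204-87424453, strand -: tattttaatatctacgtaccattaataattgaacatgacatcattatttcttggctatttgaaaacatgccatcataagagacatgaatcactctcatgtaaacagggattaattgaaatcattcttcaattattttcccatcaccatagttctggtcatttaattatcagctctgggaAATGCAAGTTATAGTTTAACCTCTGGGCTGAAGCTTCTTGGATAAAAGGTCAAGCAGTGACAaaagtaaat
Ugt2b37, chr5:87254789-87255038, strand -: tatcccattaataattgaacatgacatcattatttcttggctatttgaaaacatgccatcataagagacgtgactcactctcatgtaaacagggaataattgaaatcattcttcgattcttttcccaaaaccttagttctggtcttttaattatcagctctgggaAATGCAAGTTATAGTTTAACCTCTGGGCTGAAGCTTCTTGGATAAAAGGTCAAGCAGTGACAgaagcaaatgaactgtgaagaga
Ugt2b36, chr5:87092556-87092805, strand -: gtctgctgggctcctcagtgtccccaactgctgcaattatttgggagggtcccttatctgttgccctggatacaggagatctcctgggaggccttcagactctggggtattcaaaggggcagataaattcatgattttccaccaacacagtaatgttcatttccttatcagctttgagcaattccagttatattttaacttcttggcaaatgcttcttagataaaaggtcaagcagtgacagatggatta
Over the whole window, Ugt2b37 and Ugt2b38 were 84.8% identical, Ugt2b5 and Ugt2b38 81.5%, Ugt2b5 and Ugt2b37 72.6%, and Ugt2b5 and Ugt2b36 59.3%. RefSeq windows were found for 9 of the 10 members, all but Ugt1a6b. On either strand of them, AGGTCA, the element bound by many nuclear receptors, was found in 5 members (Ugt1a9, Ugt2b5, Ugt2b36, Ugt2b37 and Ugt2b38) and in 14% of 32851 promoters. In the 4 Ugt2b genes it lies in the printed windows 22 to 39 bases before the start, inside the common stretch where that is present. The STAT5 motif TTCNNNGAA was found in 0 of the 9 windows (7.02% of promoters), and so was the C/EBP motif TTGCGCAA (0.164%). TGTTCT, an element of steroid hormone receptors, was found in Ugt2b34 (16.1%). GTTAAT, the core bound by HNF1, was found in Ugt1a1, Ugt1a9 and Ugt2a3 and in 6.43% of promoters. These stretches are shown with the core, on either strand, in capitals.
Ugt1a1: acaatcaatcATTAACtggttgcaca
Ugt1a9: taagtaaatcATTAACctgaatttaa
Ugt2a3: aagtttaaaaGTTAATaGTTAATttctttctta
A match describes these letters only.

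The 10 members together took 0.209% to 0.378% of all counts. Their summed level was 3455 to 4106 CPM in the 4 male libraries and 1985 to 3175 CPM in the 4 female libraries, with no overlap. The Ugt1a members made up 82.7 to 293 CPM of these sums and the Ugt2 members the rest.

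To compare genes, CPM were divided by the kilobases of exon that no other gene covers. In WT males, Ugt2b5, Ugt2b1 and Ugt2b36 led with 393 and 459, 404 and 426, and 316 and 398 CPM per kb in the 2 libraries, and Ugt2b5 overlapped both of the others, while Ugt2b36 lay just below Ugt2b1. Ugt2a3 followed at 141 and 186 CPM per kb, above Ugt2b34 at 108 and 138. The length used for Ugt2b34 was 4312 bases, all its annotated exons, while its transcript with the longest coding sequence has 3051. For Ugt2b36 these lengths were 2059 and 1888 bases. The places of both genes therefore depend on the length used. Ugt1a1 (110.5 and 124) and Ugt2b38 (63.4 and 112) overlapped Ugt2b34. Ugt1a9 lay below Ugt2b34, at 107 CPM per kb in its higher library. Its 2 libraries lay far apart, at 94.5 and 10.6 CPM before division by length. Ugt1a6b was at 31.5 and 46.0 CPM per kb, and Ugt2b37 came last at 4.48 and 5.13.

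In WT females, Ugt2b5 again stood highest, at 302 and 357 CPM per kb, and Ugt2b36 followed at 223 and 292. Ugt1a1 at 102 and 214, Ugt2a3 at 124 and 139.7 and Ugt2b1 at 92.7 and 126 overlapped in their spread. The place of Ugt1a1 depends on the length used: per kb of all its exons it was at 21.4 and 19.1 CPM in WT males and at 17.7 CPM in the lower of the WT female libraries. Ugt2b37 was lowest there too, at 5.45 and 5.50 CPM per kb. Ugt2b1 thus made up 20.4% and 26.5% of the summed level per kb in WT males, 13.3% and 15.5% in NT-KO males and 7.02% to 9.31% in the female libraries. For Ugt1a1, the enzyme that conjugates bilirubin, these shares were 3.58% to 6.87% in male libraries and 10.3% to 15.9% in female libraries. Neither gene's male and female shares overlapped.

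**Figure D1:**
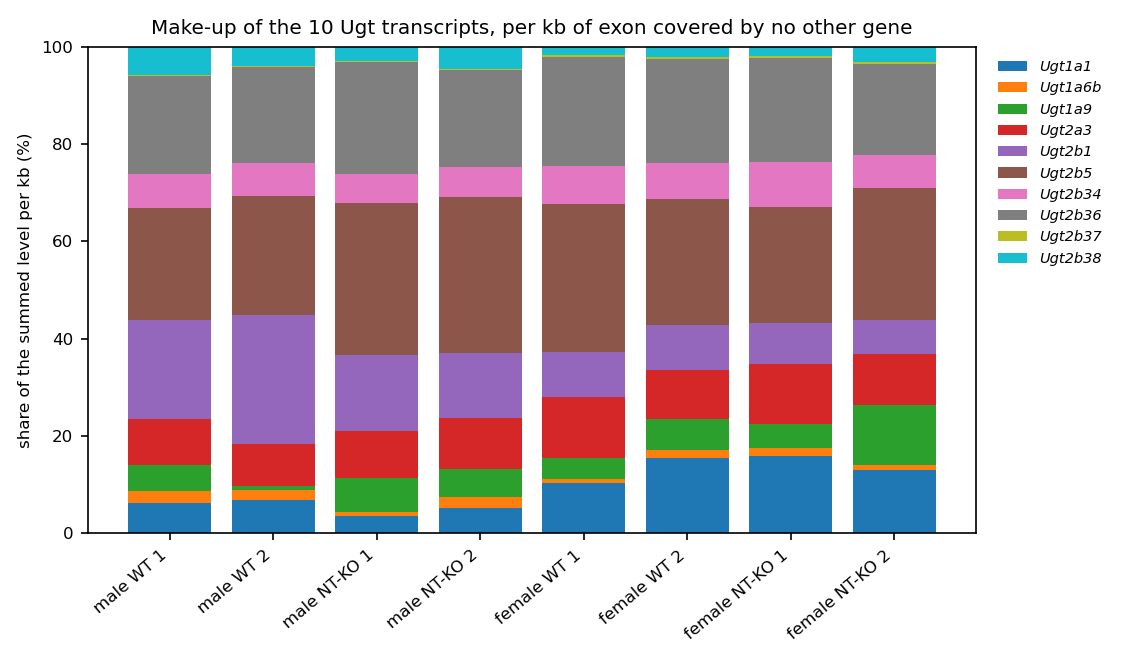
Stacked bars show, for each of the 8 libraries, the share (%) of each of the 10 members in their summed CPM per kb of exon that no other gene covers. Ugt2b5 and Ugt2b36 form the broad middle bands in every library, and the band of Ugt2b1 narrows from 26.5% in a male WT library to 7.02% in a female NT-KO library.

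Replicates of a group lay far apart for several members, most of them of the Ugt1a locus. Ugt1a9, which conjugates bulky phenols, was at 94.5 and 10.6 CPM in WT males, a gap of 3.15 on the log2 scale that exceeded the gap of 99.7% of tested genes. It was also at 52.8 and 189 CPM in NT-KO females, a gap larger than that of 99.2% of genes. Ugt1a6b, an enzyme of small planar phenols, was at 12.2 and 37.7 CPM in NT-KO males, a gap larger than that of 98.2% of genes. Of the Ugt2 genes, Ugt2b38 was at 39.6 and 103 CPM in NT-KO females, a gap larger than that of 98.6% of genes. Summed over the locus, the Ugt1a counts came to 211 and 105 CPM in WT males, 182 and 226 CPM in NT-KO males, 123 and 250 CPM in WT females, and 211 and 360 CPM in NT-KO females.

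**Figure D2:**
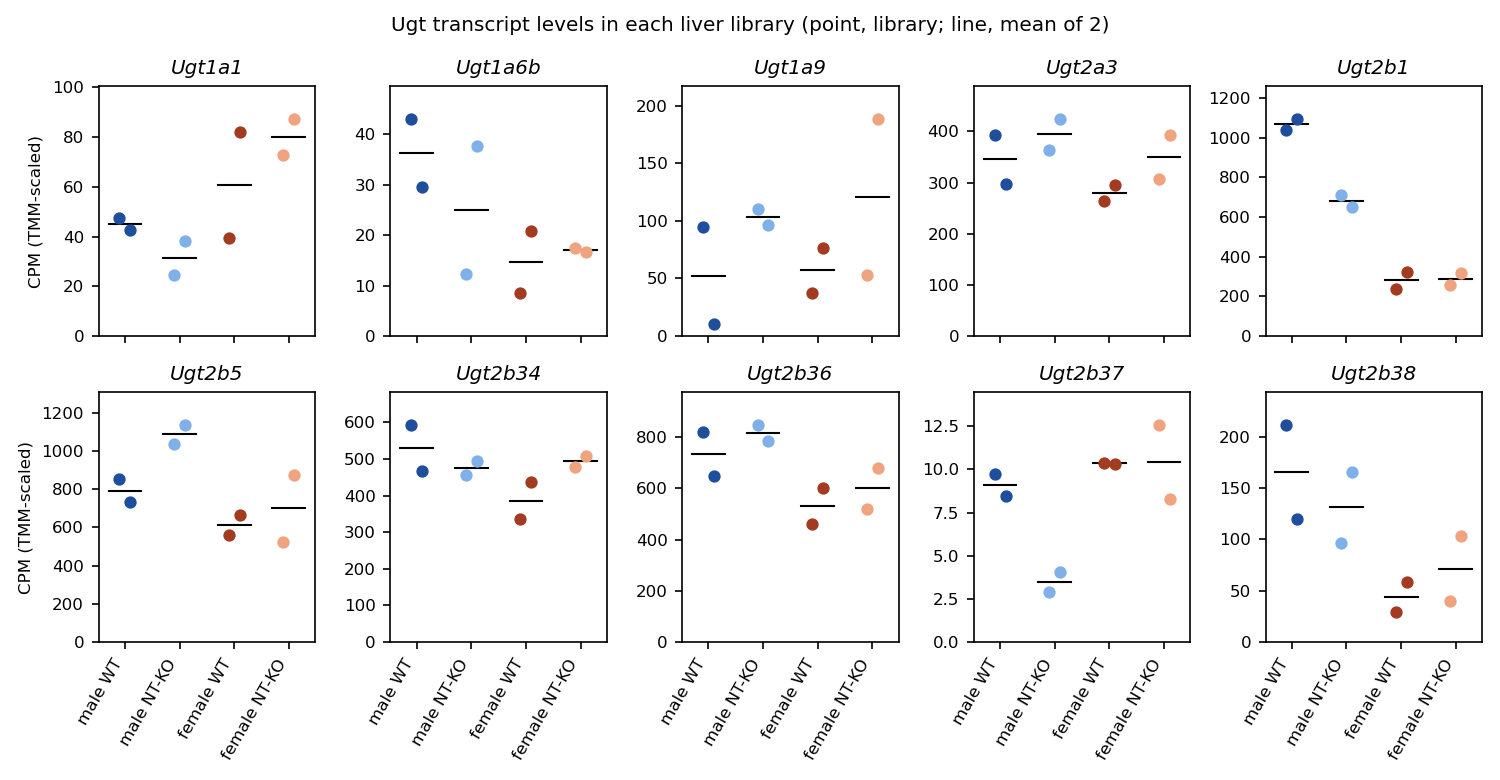
Each panel shows 1 member, with the level in CPM on a linear axis from 0, a point for each library and a line at the mean of the 2 libraries of a group. The 2 male NT-KO points of Ugt2b37 (2.92 and 4.05 CPM) lie below all other points of their panel, and the 4 male points of Ugt2b1 lie above the 4 female points.

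NT-KO and WT males were compared to ask whether the deletion in Lbr goes with a change in these transcripts. Ugt2b37 was the member with the smallest p. It was at 9.71 and 8.49 CPM in WT males and at 2.92 and 4.05 CPM in NT-KO males, that is 547 and 361 counts against 143 and 212. Both male NT-KO libraries were below both WT libraries. The log2 fold change was -1.39 ± 0.257 (SE, n = 2 and 2), with FDR = 0.160 (edgeR's quasi-likelihood test, Benjamini-Hochberg over 13117 genes), so the difference did not pass.

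A gene counted as called when its FDR did not exceed 0.05 and its log2 fold change lay beyond 1 in either direction. By this rule 0 of the 10 members were called in males, where 2 of all 13117 genes (0.0152%) were, and 2 members, both lower, had an unadjusted p under 0.05 (5.50% of all genes were lower at that p). The study's methods name edgeR's glmFit, to which the likelihood ratio test belongs. With edgeR's likelihood ratio test 1 member was called, Ugt2b37 at FDR = 0.00143, where 0.739% of all genes were called lower. With DESeq2 the same gene alone was called, at FDR = 5.24e-04, where 0.808% were. Over all alternatives, left-out libraries included, its FDR ranged from 9.41e-06 to 0.297, and with a library left out the log2 fold change lay between -1.65 and -1.17.

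Ugt2b1 had the next smallest p. This enzyme belongs to the subfamily that conjugates steroids and bile acids. Its levels were 1039.9 and 1097 CPM in WT males and 710.4 and 650.2 CPM in NT-KO males, again without overlap. The log2 fold change was -0.65 ± 0.212 (SE), with FDR = 0.316 by edgeR's quasi-likelihood test, and it did not pass.

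The other members are described by their values. Ugt1a1 was at 47.6 and 42.5 CPM in WT males and at 24.5 and 38.3 CPM in NT-KO males (log2 difference -0.52 ± 0.339 SE). Ugt2b5 was at 853 and 730.4 CPM in WT males and at 1036 and 1137 CPM in NT-KO males (log2 difference 0.46 ± 0.259 SE), so its libraries also lay apart, and in the other direction from Ugt2b37. Of the 50-base stretches of Ugt2b37, 15.2% occur in Ugt2b5. Ugt2b38, the closest copy of Ugt2b5, was at 212 and 119.9 CPM in WT males and at 96.9 and 166 CPM in NT-KO males, which overlap. Ugt1a9, at 94.5 and 10.6 CPM in WT males and 110.2 and 96.7 CPM in NT-KO males (log2 difference 0.98 ± 0.892 SE), rests on the WT libraries: with male WT replicate 2 left out the difference was 0.14, and 3.28 when replicate 1 was left out instead. The remaining 4, Ugt1a6b, Ugt2a3, Ugt2b34 and Ugt2b36, overlapped between the groups, with log2 differences from -0.54 to 0.19. In all, 3 members lay lower without overlap (19.2% of all genes did) and 2 higher (19.6%). The median log2 difference of the members was -0.25, against 0.012 over all tested genes.

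Among other genes, 0 of the 14 ER chaperones tested were called in males. All 14 had a log2 difference below 0, 13 of them with an unadjusted p under 0.05 (5.50% of all genes were lower at that p), and their median log2 difference was -1.25. The smallest p belonged to Hyou1 (-2.17 ± 0.372 SE, FDR = 0.160 by edgeR's quasi-likelihood test) and Creld2 (-3.76 ± 0.758 SE, FDR = 0.167). Hspa5, the ER chaperone BiP, was at 903 and 2582 CPM in WT males and at 337 and 522 CPM in NT-KO males. In females 0 were called, and 12 of the 14 had a log2 difference below 0, with a median of -0.11. UGTs are ER membrane proteins, but the part of these genes in the Ugt values was not tested.

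In females, 0 of the 10 members were called, as against 1 of 13117 genes (0.00762%), and 0 had an unadjusted p under 0.05 (1.55% of all genes did). The likelihood ratio test and DESeq2 also called 0 members, where they called 0.0839% and 0.0381% of all genes. The fitted log2 difference was above 0 in 10 of 10 members, from 0.01 to 1.09 with a median of 0.27 (Ugt2b37 was at -0.0016 when scaled by library size only), against a median of 0.001 over all genes. That number rests on single libraries, since it was 5 of 10 without female NT-KO replicate 2 and 7 of 10 without female WT replicate 1. The level of Ugt2b34 was 337 and 436 CPM in WT females and 479 and 508 CPM in NT-KO females. The groups lay apart, and the log2 difference was 0.36 ± 0.206 (SE, n = 2 and 2), with FDR = 1.00 by edgeR's quasi-likelihood test. Ugt2a3, at 263 and 296 CPM in WT females and 307 and 392 CPM in NT-KO females, also lay apart (log2 difference 0.33 ± 0.215 SE, FDR = 1.00, same test). These 2 were the only members without overlap, and 11.5% of all genes lay higher in that way.

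The genes with the smallest p in males had near-equal levels in females. Ugt2b37 was at 10.4 and 10.3 CPM in WT females and at 12.6 and 8.26 CPM in NT-KO females, a log2 difference of 0.01 ± 0.247 (SE). Ugt2b1 was at 239 and 325 CPM in WT females and at 258 and 316 CPM in NT-KO females, a log2 difference of 0.03 ± 0.211 (SE). The largest female difference belonged to Ugt1a9, at 37.7 and 76.4 CPM against 52.8 and 189 CPM (log2 1.09 ± 0.893 SE), and it rests on 1 library: without female NT-KO replicate 2 it was -0.10.

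**Figure D3:**
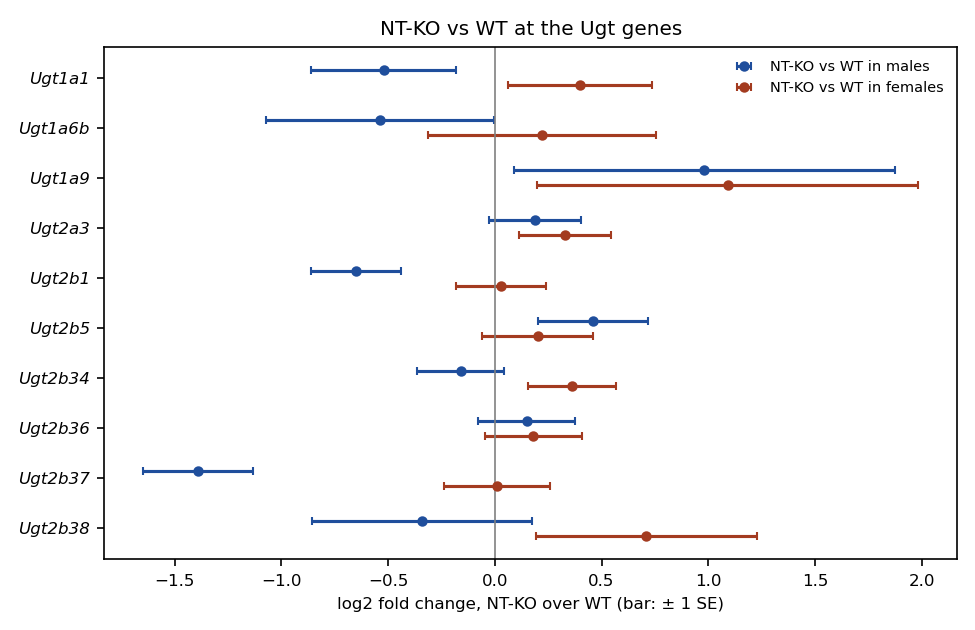
Points give the log2 fold change of NT-KO over WT for each member in males and in females, and bars give 1 SE on either side. In males Ugt2b37 (-1.39) and Ugt2b1 (-0.65) lie to the left of 0, while in females both lie at 0.01 and 0.03, and Ugt1a9 has the widest bars in both sexes.

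The difference between the sexes in the NT-KO effect was tested directly. It was -1.40 ± 0.355 (SE) for Ugt2b37 on the log2 scale, with FDR = 0.573 by edgeR's quasi-likelihood test. For Ugt2b1 it was -0.68 ± 0.299 (SE), with FDR = 0.688 in the same test. It was called for 0 members, as against 2 of 13117 genes (0.0152%) with the FDR alone, and 1 member, Ugt2b37, had an unadjusted p under 0.05 (3.53% of all genes were below 0 at that p). The likelihood ratio test and DESeq2 called 0 members, where they called 0.351% and 0.473% of all genes. Over both sexes, 0 members were called, as against 0.0152% of all genes, and the likelihood ratio test (0.290% of genes) and DESeq2 (0.297%) called 0 as well. Ugt2b37, the 1 member with an unadjusted p under 0.05 there (2.42% of genes were lower at that p), had a log2 difference of -0.69 ± 0.177 (SE) with FDR = 0.743 by edgeR's quasi-likelihood test.

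Male and female livers were then compared, since liver UGT expression is known to depend on sex. Ugt2b1 rose in males in WT, in NT-KO and over both genotypes. Its 2 male WT libraries, at 1039.9 and 1097 CPM, stood far above the 2 female WT libraries, at 239 and 325 CPM. In WT the log2 difference was 1.92 ± 0.218 (SE), or 3.79-fold, with FDR = 0.00291 by edgeR's quasi-likelihood test. In NT-KO, at 710.4 and 650.2 CPM in males and 258 and 316 CPM in females, it was 1.24 ± 0.214 (SE), or 2.36-fold, with FDR = 0.0275 in the same test. Over both genotypes it was 1.58 ± 0.153 (SE, n = 4 and 4), with FDR = 6.72e-04. The Ugt2b1 call in WT and that over both genotypes held with each library left out (FDR at most 0.0265 and 0.00709 by the same test), while that in NT-KO did not (FDR 0.0310 to 0.266).

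Ugt2b1 was the 1 member of 10 called in WT, where 2.13% of all genes were called higher in males. Of the members, 7 lay higher in males without overlap (30.7% of all genes did) and 1 lower, Ugt2b37 (31.3%). Over both genotypes it was again the 1 member called (1.95% of all genes were called higher), and the only one of 10 whose 4 male libraries all lay above its 4 female libraries (7.78% of all genes lay higher in that way). Ugt2b37 had a log2 difference of -0.89 ± 0.178 (SE) there, with FDR = 0.0227 by edgeR's quasi-likelihood test. It missed only the threshold on the fold change, and 7.84% of all genes passed the FDR alone. There, 5 members were higher and 2 lower at an unadjusted p under 0.05 (13.1% and 13.8% of all genes). The likelihood ratio test and DESeq2 each called 2 members there, where 2.46% and 2.38% of all genes were called higher, and 2 in WT (3.29% and 3.30%). With 1 library left out, the number over both genotypes became 2 without male NT-KO replicate 1 or 2 or female WT replicate 1, and 3 with female NT-KO replicate 2 left out.

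The gene added by those tests was Ugt2b38, at 212 and 119.9 CPM in WT males against 29.2 and 58.1 CPM in WT females. The groups lay apart, the log2 difference was 1.93 ± 0.532 (SE) or 3.80-fold, and FDR = 0.0691 by edgeR's quasi-likelihood test just missed the threshold. In NT-KO it was at 96.9 and 166 CPM in males and 39.6 and 103 CPM in females, which overlap (log2 difference 0.88 ± 0.518 SE). Its FDR over both genotypes was 0.0571 (log2 difference 1.40 ± 0.370 SE, same test).

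Ugt2b37, which shares the promoter stretch with Ugt2b38, lay on the other side. In NT-KO it was at 2.92 and 4.05 CPM in males and 12.6 and 8.26 CPM in females, and it fell in males by 1.59 ± 0.257 (SE) on the log2 scale, with FDR = 0.0197 by edgeR's quasi-likelihood test. In WT the male libraries, at 9.71 and 8.49 CPM, were close to the female ones, at 10.4 and 10.3 CPM (log2 difference -0.19 ± 0.248 SE, FDR = 0.658). The 2 sex differences differ by the same -1.40 tested above, which did not pass. Ugt2b37 and Ugt2b1 were the 2 members called in NT-KO, 1 in each direction, where 0.839% of all genes were called lower and 0.945% higher. Without overlap, 3 members lay higher in NT-KO males (17.5% of all genes did) and 2 lower (16.9%). Without male NT-KO replicate 1 or without female NT-KO replicate 1, 0 members were called in NT-KO, and 1 was called without male or without female NT-KO replicate 2.

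The 3 Ugt1a members were not called between the sexes by edgeR's quasi-likelihood test on TMM-scaled counts. Ugt1a1 was at 24.5 and 38.3 CPM in NT-KO males against 72.6 and 87.4 CPM in NT-KO females, which lie apart (log2 difference -1.36 ± 0.343 SE, FDR = 0.137 by edgeR's quasi-likelihood test). In WT it was at 47.6 and 42.5 CPM in males and 39.4 and 82.2 CPM in females, which overlap. Over both genotypes the log2 difference was -0.90 ± 0.240 (SE) with FDR = 0.0590, and with a library left out it lay between -1.11 (FDR = 0.0163, without female WT replicate 1) and -0.59. In NT-KO the likelihood ratio test (FDR = 0.00827) and DESeq2 (FDR = 0.00157) called Ugt1a1 lower in males. They called 1.55% and 1.52% of all genes lower there. Scaled by library size only, the quasi-likelihood test called Ugt1a1 over both genotypes (log2 difference -1.03, FDR = 0.0324), where 4.96% of all genes were called. Ugt1a6b was at 43.1 and 29.5 CPM in WT males against 8.54 and 20.8 CPM in WT females (log2 difference 1.31 ± 0.542 SE, FDR = 0.168, same test). With the locus summed to 1 row, the log2 difference between the sexes over both genotypes was -0.37 ± 0.304 (SE) and FDR = 0.477 in the same test.

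**Figure D4:**
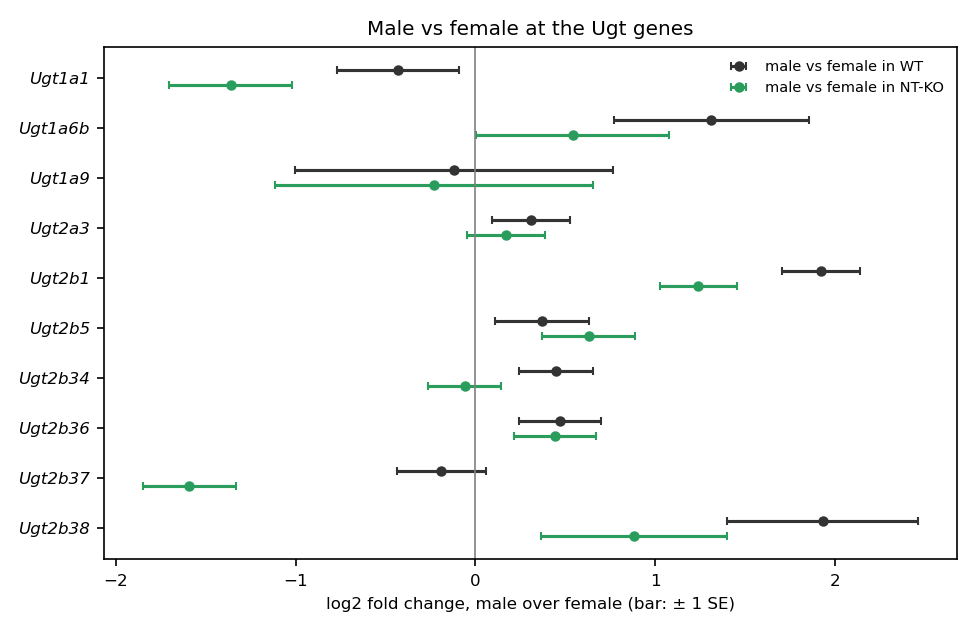
Points give the log2 fold change of male over female for each member in WT and in NT-KO, and bars give 1 SE on either side. Ugt2b1 lies to the right of 0 in both genotypes (1.92 and 1.24), and Ugt2b37 lies near 0 in WT (-0.19) and at -1.59 in NT-KO.

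Genes of the circadian clock also differed between the sexes, and the hour of collection and the group cannot be told apart. Arntl, the clock activator BMAL1, was at 4.19 and 4.09 CPM in WT males, 1.92 and 1.34 CPM in NT-KO males, 0.620 and 0.545 CPM in WT females and 1.52 and 0.673 CPM in NT-KO females. Dbp, a clock output factor, was at 28.6 and 30.7 CPM in WT males and at 43.3 to 70.0 CPM in the other 6 libraries. Of 11 clock genes tested, 4 were called between the sexes in WT, Arntl (log2 difference 2.83) and Clock (1.33) higher in males and Dbp (-1.18) and Per3 (-1.15) lower, where 2.13% of all genes were called higher and 2.55% lower. In NT-KO 0 were called. Between genotypes 0 were called, and the smallest p belonged to Per3 (0.61) and Dbp (0.96) in males and to Arntl (0.91) and Dbp (-0.25) in females. Of the ER chaperones, Hyou1 (1.86), Dnajc3 (1.14) and Pdia6 (1.09) were called higher in males in WT (2.13% of all genes were), and 0 were called in NT-KO. The part of the hour or of these genes in the sex differences of the members was not tested.

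Other genes of the pathway were followed in lists chosen for their role. Of 12 other Ugt genes, 9 were tested and 0 were called in either genotype comparison. In males the 2 with the smallest p were Ugt1a6a (log2 difference 0.76 ± 0.229 SE, FDR = 0.287 by edgeR's quasi-likelihood test) and Ugt1a8 (1.65 ± 0.624 SE, FDR = 0.379), and 8 of 9 lay above 0. Ugt1a8 was low, at 0.870 and 0.188 CPM (49 and 8 counts) in WT males and 1.59 and 1.83 CPM in NT-KO males. In females the 2 with the smallest p were Ugt3a1 and Ugt2b35, at 0.54 and 0.32 on the log2 scale. Ugt2b35, at 159 to 246 CPM in the male libraries and 70.3 to 126 CPM in the female libraries, rose in males over both genotypes (1.06 ± 0.200 SE, FDR = 0.0185, same test). Ugt2a1 and Ugt2a2 had 0 counts in all 8 libraries, but only 1.2% and 5.5% of their exonic bases are covered by no other gene, so reads over them may not have been counted for either.

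The list for UDP-glucuronic acid supply and conjugate transport had 15 genes, all tested, and 0 were called in either genotype comparison. In males, Slc35b1, an ER nucleotide transporter, had a log2 difference of -1.05 ± 0.274 (SE, FDR = 0.243 by edgeR's quasi-likelihood test), and Abcc3, which exports glucuronides into blood, one of 1.04 ± 0.381 (SE, FDR = 0.364). In females the smallest p belonged to the uptake transporters Slco1a1 (0.90 ± 0.406 SE) and Slco1b2 (0.43 ± 0.271 SE), both with FDR = 1.00 in the same test. Between the sexes over both genotypes 1 gene was called in each direction. Abcg2, an efflux pump of the canalicular membrane, was at 76.5 to 105 CPM in males and 30.5 to 41.6 CPM in females (log2 difference 1.30 ± 0.154 SE, FDR = 0.00201), and the uptake transporter Slco1a4 fell in males by 1.05 ± 0.250 (SE, FDR = 0.0418). Ugdh, which makes UDP-glucuronic acid, was at 146 to 234 CPM in males and 66.7 to 124 CPM in females, which lie apart, and it was not called.

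Of 20 regulators known for control of Ugt genes or of sex-dependent liver genes, mostly transcription factors, 0 were called in either genotype comparison. In males Nr1h4, the bile acid receptor FXR, had a log2 difference of 0.51 ± 0.176 (SE, FDR = 0.344 by edgeR's quasi-likelihood test). In females the smallest p belonged to the repressor Bcl6 (1.10 ± 0.583 SE) and Keap1, an inhibitor of NRF2 (0.16 ± 0.141 SE), both with FDR = 1.00. Bcl6 was at 11.8 and 9.31 CPM in WT females and at 7.45 and 37.8 CPM in NT-KO females. These overlap, and the difference rests on female NT-KO replicate 2. Between the sexes over both genotypes Cux2, a repressor expressed in female liver, was called lower in males, at 0.248 to 0.632 CPM in males and 38.5 to 99.2 CPM in females (log2 difference -7.28 ± 0.409 SE, FDR = 4.36e-05, same test).

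Of 14 targets of the receptors that also act on Ugt genes (CAR, PXR, AhR, NRF2, PPARα and FXR), 0 were called in either genotype comparison, and 12 lay above 0 in males and 11 in females. The smallest p in males belonged to the PPARα targets Cyp4a10 (1.97 ± 0.453 SE, FDR = 0.210 by edgeR's quasi-likelihood test) and Cyp4a14 (2.48 ± 0.609 SE, FDR = 0.229). In females Cyp4a14 (-1.08 ± 0.503 SE) and Tiparp (0.36 ± 0.217 SE) came first, both with FDR = 1.00. Between the sexes over both genotypes, 6 were called, all lower in males (2.24% of all genes were called lower), among them Cyp4a14 (-7.23 ± 0.475 SE), Cyp4a10 (-5.57 ± 0.367 SE), the CAR targets Cyp2b9 (-8.01 ± 1.23 SE) and Cyp2b10 (-2.94 ± 0.503 SE), and the NRF2 target Nqo1 (-1.76 ± 0.237 SE), each with FDR at most 0.0116.

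**Figure D5:**
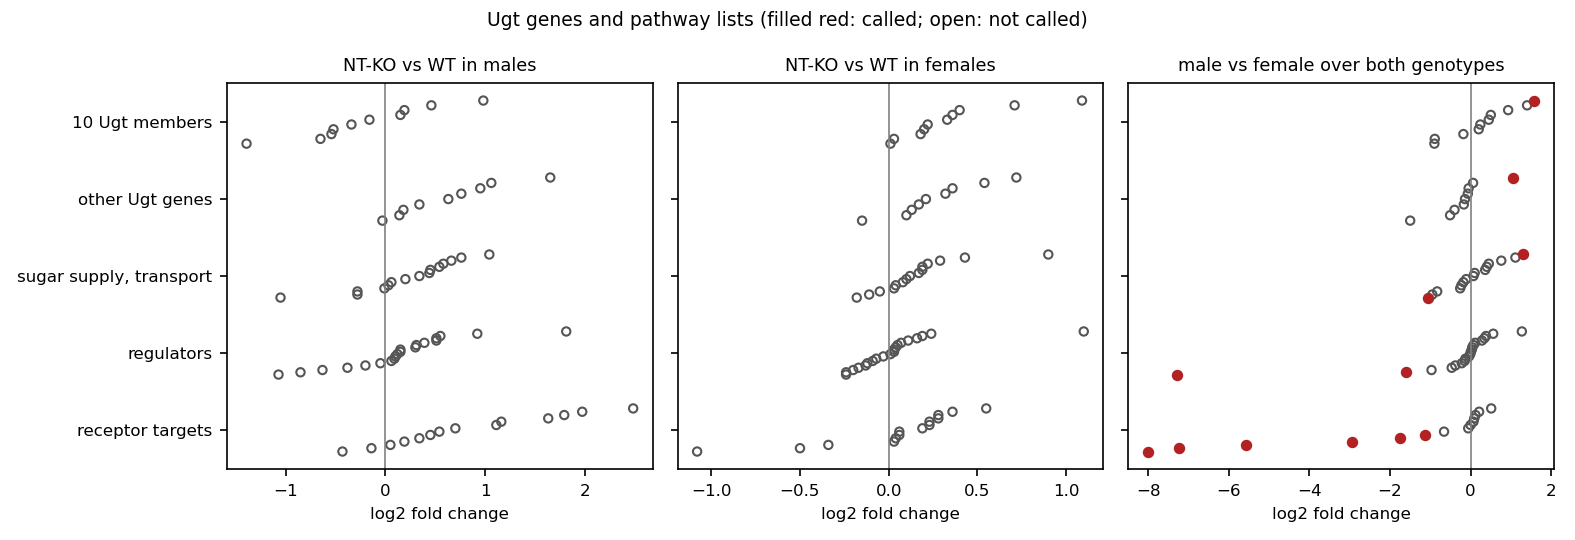
Each point is the log2 fold change of 1 gene in 1 comparison (panel), by list, with red filled points for called genes and open points for the rest; the 3 panels have different horizontal scales. Called genes appear only in the panel of male vs female, where Ugt2b1 (1.58) is the member called and the receptor targets reach -8.01.

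For each member the tested gene outside the family with the most similar pattern was found, by Pearson's r of log2 CPM over the 8 libraries, which share the 4 groups and their sex difference. The values are the highest over all tested genes and describe these libraries only. They were Ambra1 for Ugt1a1 (0.953), Psmd2 for Ugt1a6b (0.990), Nectin3 for Ugt1a9 (0.955), Serinc5 for Ugt2a3 (0.973) and Mup-ps20, a major urinary protein pseudogene, for Ugt2b1 (0.988). For the others they were Adh4, an alcohol dehydrogenase, for Ugt2b5 (0.993), Mreg for Ugt2b34 (0.986), Enpp5 for Ugt2b36 (0.988), Pls1 for Ugt2b37 (0.961) and Mob1b for Ugt2b38 (0.992). A different gene came first for each of the 10 members.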

How the data were processed

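Counts were taken from the table that the authors deposited, which holds raw reads per gene for the 8 libraries, with no normalization; 0 columns were left unused. According to the labels and the study's methods, the authors trimmed reads with cutadapt, aligned them to GRCm38 with STAR 2.6.1a and counted them with featureCounts on the Ensembl annotation of that build. The libraries were made with a TruSeq RNA kit, and the strand and multiple-overlap settings are not given in the sources used here. Total counts were 45020377 to 64396291 per library. Groups follow the sample titles. Of 49671 IDs, 49412 matched GENCODE M21.

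The 13117 genes tested reached 1 CPM in 2 or more libraries; rRNA, miRNA and mitochondrial genes were set aside. The quasi-likelihood test of edgeR 4.0.16 (R 4.3.3) was applied to TMM-scaled counts of all 8 libraries, with 4 group means and no replicate block, and p-values were adjusted by Benjamini-Hochberg over all tested genes (FDR). A call needed an FDR not above 0.05 and a log2 fold change beyond 1 in either direction (for the difference between the sexes in the NT-KO effect, the FDR alone). SEs are log2 fold changes over the root of F.

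All 10 members are given with their values. Described in full were called members or, where none was, the 2 with the smallest p; from the lists, called genes (up to 5 by p) or the 2 with the smallest p. Members, lists and tests were chosen with earlier results of these data known. 1 gene of the regulator list that the rule names is not reported here. Genes named beyond this rule (Hspa5, Ugdh, Ugt1a10, Ugt2a1, Ugt2a2) were chosen after their values were seen. The alternatives were the likelihood ratio test, DESeq2 1.42.0, other scalings and filters, a replicate block, robust dispersion, other thresholds, the Ugt1a locus as 1 row, and each library left out. Promoters are from RefSeq; coding sequences were aligned with Biopython 1.88.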

Additional observations from a re-analysis of the deposited data

How the results depend on the processing

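All values below are counts of called members, with the share of all tested genes called in brackets, or log2 differences. In males (NT-KO vs WT, 0 called), the likelihood ratio test called 1 member (1.56% of all genes), as did DESeq2 (1.66%). No filter beyond 1 count also called 1 (2.24% of 29724 genes). That last setting also called 1 member in females (0.579% of genes) and over both sexes (0.690%). It called 1 for the difference between the sexes (1.86%), and 0 were called otherwise. For males vs females in WT (1 called) it called 3 (5.84% of genes). The likelihood ratio test (7.92%) and DESeq2 (7.52%) called 2 there. Over both genotypes (1 called), these 3 settings, the replicate block and no minimum fold change called 2 (4.09% to 7.84% of genes). Library size only called 3 there (4.96%). In NT-KO (2 called), the likelihood ratio test, DESeq2 and no filter beyond 1 count also called Ugt1a1 (2.78% to 3.13% of genes). An FDR of at most 0.01 left 0 (0.922%). The cause was not tested. Library size only moved the median of all genes to -0.18 in WT and -0.12 over both genotypes between the sexes, and it turned Ugt2b37 in females to -0.0016.

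With each library left out in turn, the number called ranged from 0 to 3 between the sexes in NT-KO, from 1 to 3 over both genotypes, and stayed at 1 in WT and at 0 in the genotype comparisons. Of the 10 members, 3 changed sign in males, Ugt2b38 (range -0.78 to 0.12), Ugt1a6b (-1.58 to 0.05) and Ugt2b34 (-0.32 to 0.01). In females 8 did, Ugt2b1 (-0.17 to 0.26), Ugt1a1 (-0.03 to 1.02), Ugt1a6b (-0.28 to 1.00), Ugt2b37 (-0.33 to 0.29), Ugt1a9 (-0.10 to 1.73), Ugt2b5 (-0.21 to 0.52), Ugt2b36 (-0.02 to 0.38) and Ugt2b38 (-0.13 to 1.28). Of the members described between the sexes, Ugt1a1 did in WT (-0.87 to 0.18). A group left with 1 library was assumed to vary like the others.

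Same-numbered replicates of different groups did not deviate together (r from -0.18 to 0.21), so the replicate block is an alternative only; it changed the number of called members in no other comparison. RLE size factors, filterByExpr, robust dispersion and the Ugt1a locus as 1 row kept each of the 7 numbers of called members within 1.5 times. The depth of at least 45020377 counts put 1 count at no more than 0.0222 CPM before TMM scaling, far below the lowest member.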
